A study of Mus musculus with 10 samples.

Results

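Anti-FLAG immunoprecipitates of non-crosslinked neurospheres were sequenced as 3 libraries from Mex3aFLAG/FLAG cultures (FLAG) and 3 libraries from wild-type Mex3a+/+ cultures (WT), which are 6 of the 10 libraries of a RIP-seq experiment. These 6 native libraries were taken by their labels, and all 15899 genes of the deposited matrix were compared between them. The cultures are neural stem cell (NSC) neurospheres from the subependymal zone of 10-week-old adult mice, grown with EGF and FGF. FLAG mice carry a 3X-FLAG peptide at the C-terminus of the endogenous MEX3A protein on both alleles, and WT cultures of the same background carry no tag, so that FLAG over WT reads RNA held by MEX3A-FLAG over RNA that sticks to the beads and antibody. The other 4 libraries (2 FLAG, 2 WT) were made after crosslinking and are used only where stated. Libraries were made with a stranded kit, random hexamers and no poly-A selection, so RNAs without a poly-A tail could enter them. The methods call the replicates biological and state that mice of both sexes entered the experiments, but the labels give neither the sex nor the animals behind a library. RNA of the whole lysate was not analysed here, and a difference in pulldown cannot be told apart from a difference in RNA level between the cultures.

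MEX3A belongs to a family of RNA-binding proteins with KH domains, which recognise short sequences mostly in 3' untranslated regions, and with a RING domain that can act as a ubiquitin ligase. The family is named after MEX-3 of C. elegans, which holds maternal messages untranslated in the early embryo. In the adult subependymal zone, NSCs pass through activated and progenitor stages to neuroblasts, and RNA-binding proteins set which of the messages already present are translated on that path.

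The libraries did not fall apart by genotype over all genes, and this bears on every result that follows. FLAG replicate 2 correlated across genes with WT replicates 1, 2 and 3 at r = 0.962, 0.960 and 0.954, and with FLAG replicates 1 and 3 at 0.911 and 0.925. WT replicate 2 was the WT library nearest to FLAG replicates 1 and 3 (r = 0.930 and 0.931). FLAG replicates 1 and 3 had 329 and 178 genes at the library's lowest value against 1 to 3 in the other native libraries. The counts of calls and most class medians are therefore also given without FLAG replicate 2. That library was singled out because it lay nearest to WT, so most differences and call counts grow by that choice. Such counts are no added support for a result. WT replicate 2, the WT library nearest to FLAG replicates 1 and 3, was kept in them. Neural stem cell markers were present, with log2 values of 7.99 to 8.82 for Slc1a3 and 6.85 to 8.56 for Nes over the 6 libraries, while Dcx, Dlx2, Pdgfra, Sox10, Mbp, C1qa, Cldn5 and Col1a1 are not among the genes of the matrix. Other neuroblast markers were present, 8 of 17. Their summed linear level was 1645, 1644 and 1564 in FLAG and 1861, 1536 and 1467 in WT. Cx3cr1, a microglial gene, had values of 3.94 to 4.61, although only 3 of 12 microglial markers are in the matrix. Its annotated span overlaps the coding genes Csrnp1 and Gorasp1 on the same strand and Wdr48 on the other, which may share reads with it.

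A gene was called where its adjusted p-value from limma (Benjamini-Hochberg, all genes) was under 0.05 and its log2 fold change was beyond 0.58 in size. By this rule 0 genes (0%) were higher in native FLAG and 17 genes (0.107%) were lower. The smallest adjusted p-value of a gene with a positive log2 fold change was 0.0615. With the unadjusted p-value in its place, 1235 genes (7.77%) passed as higher and 1122 (7.06%) as lower. In 926 genes (5.82%) all 3 FLAG libraries lay above all 3 WT libraries with a log2 fold change over 0.58, and in 972 (6.11%) all 3 lay below with one under -0.58. These genes are here called separated, and the gene classes are counted by them, since the adjusted test called so few. Being separated is a description and not a test. With so few libraries a gene can be separated by chance in either direction, and more easily once a library is left out. The share to be met by chance was not estimated, so these counts alone do not show a difference between the groups. Once FLAG replicate 2 was left out, the calls came to 1450 higher (9.12%) and 1710 lower (10.8%), and 2962 (18.6%) were separated higher and 3023 (19%) lower. Without WT replicate 1 or WT replicate 3, 0 of the 17 genes were called, and without FLAG replicate 1 or 3 the calls came to 4 and 1. Of the genes separated with all 6 libraries, 506 of the higher and 603 of the lower were among the genes called without FLAG replicate 2.

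The 17 genes called lower were 3 genes of the Y chromosome, 12 other protein-coding genes and 2 noncoding genes. Car8, a carbonic anhydrase-related protein that binds the IP3 receptor, had log2 values of 2.08, 2.32 and 2.38 in FLAG and 5.50, 4.93 and 5.39 in WT. All 3 FLAG libraries lay close together and well below the lowest WT library, a fold change of -3.01 on the log2 scale (standard error 0.23, adjusted p = 0.00618 from limma). Alk, the receptor tyrosine kinase for pleiotrophin-like ligands, had 4.79, 5.32 and 4.80 in FLAG and 7.88, 7.27 and 7.72 in WT (log2 fold change -2.65 ± 0.22 SE, adjusted p = 0.00618 from limma). Fam135b had 4.88, 4.54 and 4.62 in FLAG against 7.49, 6.82 and 7.27 in WT, a difference of -2.51 ± 0.21 (SE) with the same adjusted p-value. In each of these 3 genes FLAG replicate 2 lay with the other FLAG libraries and apart from WT.

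Gria4, an AMPA receptor subunit, had log2 values of 3.39, 4.70 and 3.91 in FLAG and 6.91, 6.42 and 7.02 in WT. Grin2b, an NMDA receptor subunit, had 4.50, 4.57 and 4.49 in FLAG and 6.47, 5.86 and 6.20 in WT. Chl1, a neural cell adhesion molecule of the L1 family, had 5.02, 3.23 and 4.99 in FLAG and 8.36, 7.55 and 8.13 in WT. The groups did not overlap in any of them, and the fold changes were -2.78, -1.66 and -3.60 on the log2 scale. The 3 unspliced transcripts annotated inside Chl1 lay lower too, with log2 fold changes of -3.73 to -4.90. Pde4d and Pde1c, which break down cyclic nucleotides, had log2 fold changes of -1.66 and -1.62. Fbln2, an extracellular matrix protein, had -2.19, Ccbe1, a secreted factor of lymphatic development, -1.34, Fam155a, a subunit of the NALCN sodium leak channel, -2.16, and Asb18, an ankyrin repeat protein, -2.72. The 2 noncoding genes overlap coding genes on the other strand that had similar values: 4933432K03Rik (-2.16) lies across Hs3st2 (-1.99), and Gm14066 (-3.38) across Sptlc3 (-4.05, with FLAG replicate 1 at its library's lowest value). Of the 15 coding genes called, 9 span 156 kb or more, which places them in the last of 10 equal bins of coding genes by span.

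**Figure D1:**
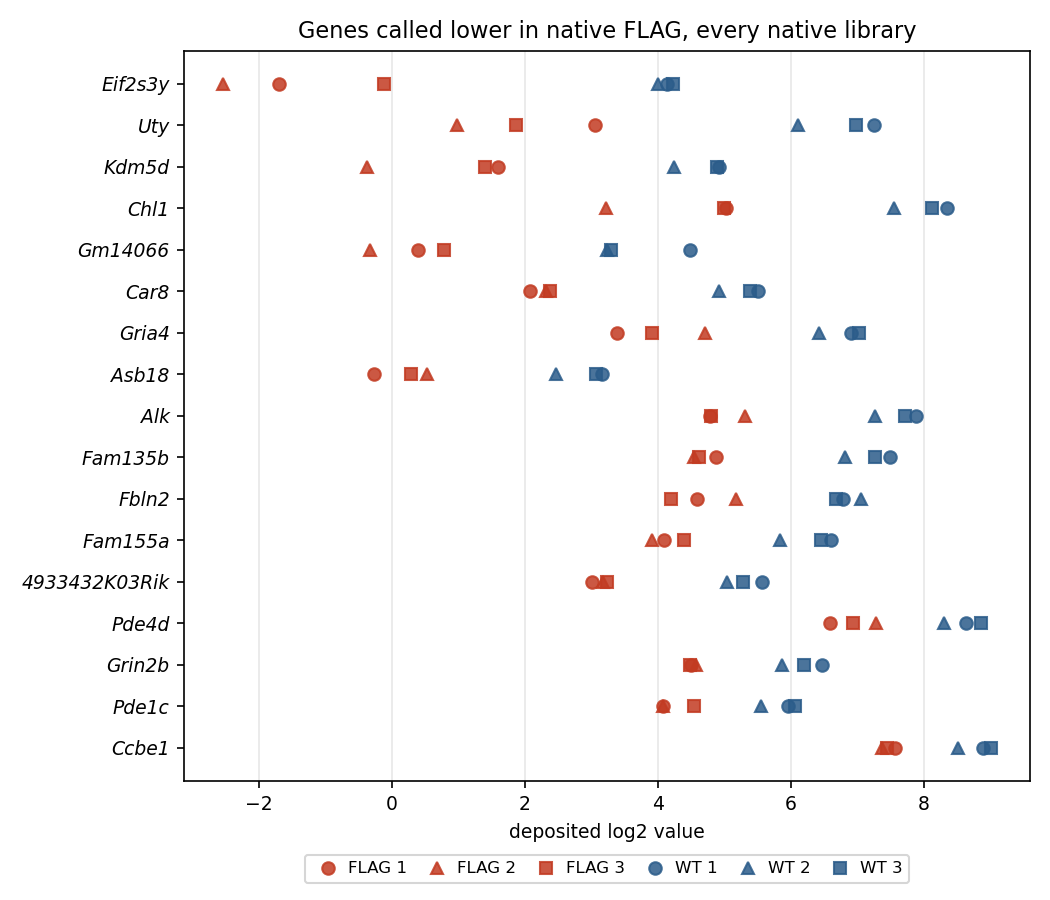
Deposited log2 values (x axis) of the 17 genes called lower in native FLAG (y axis) in each of the 6 native libraries, with FLAG in red, WT in blue and a marker shape for each replicate number. All FLAG points lie left of all WT points, from Eif2s3y (log2 fold change -5.58) to Ccbe1 (-1.34).

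Xist and 4 of the 6 Y-linked genes of the matrix separated the groups. Eif2s3y, Uty and Kdm5d, broadly expressed Y-linked genes, had log2 fold changes of -5.58, -4.82 and -3.82 (adjusted p = 0.0161, 0.0162 and 0.0404, limma). The value of Eif2s3y in FLAG replicate 1, -1.70, is the lowest of that library. Uty had log2 values of 3.06, 0.98 and 1.87 in FLAG and 7.26, 6.12 and 6.98 in WT. Ddx3y was separated (-3.86) and not called (adjusted p = 0.131, limma). The remaining Y-linked genes, Erdr1 (-0.40) and Mid1-ps1 (-0.19), overlapped. Xist, the noncoding RNA that coats the inactive X chromosome, had 9.52, 8.78 and 8.56 in FLAG and 3.13, 7.63 and 0.68 in WT, so that FLAG was higher with a wide spread in WT (log2 fold change 5.14 ± 1.40 SE, adjusted p = 0.232, limma). WT replicate 2 was the only native library high in both Xist and the Y-linked genes. The X-linked genes Ddx3x, Eif2s3x, Kdm5c and Kdm6a had log2 fold changes of 1.69 (with FLAG replicate 2 below WT replicate 2), 1.06, 0.50 and 0.16.

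The crosslinked libraries split in another way. Both crosslinked FLAG libraries and WT replicate 2 were high in Xist (10.59, 10.86 and 10.71) and low in Uty (-1.23, -3.26 and -2.12), and crosslinked WT replicate 1 was low in Xist (-0.71) and high in Uty (7.08). Each of the 17 genes called in the native libraries could so be read against a WT library on either side. Against crosslinked WT replicate 1, both crosslinked FLAG libraries were lower for all 14 called genes that are not on the Y chromosome. Against crosslinked WT replicate 2, this held for 9 of the 14. Chl1, with 3.57 and 1.58 in crosslinked FLAG, had 8.29 in WT replicate 1 and 1.01 in WT replicate 2. Gria4, Grin2b, Asb18 and 4933432K03Rik likewise had crosslinked WT replicate 2 at or below one of the crosslinked FLAG libraries. Car8 (2.34 and 2.13 in FLAG, 5.54 and 4.49 in WT), Fbln2 (3.52 and 5.04 against 7.04 and 6.75) and Fam155a (4.55 and 2.70 against 5.58 and 6.04) kept both crosslinked WT libraries above both FLAG libraries. In the native libraries the Xist and Y-linked values, the genotype and the pulldown cannot be told apart.

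**Figure D2:**
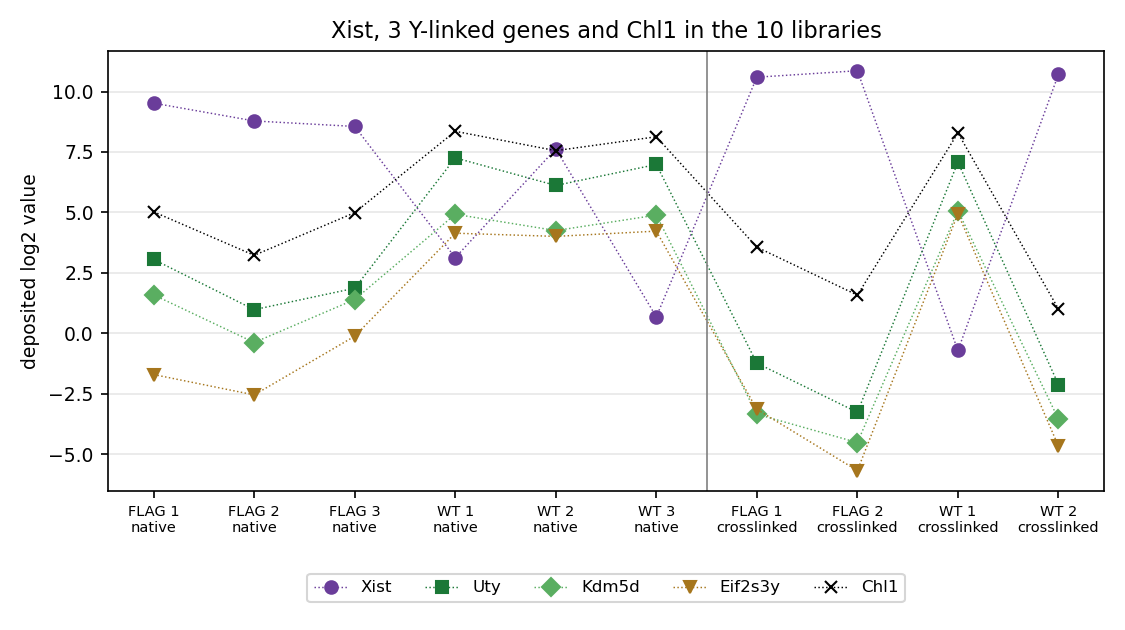
Deposited log2 values (y axis) of Xist, the Y-linked genes Uty, Kdm5d and Eif2s3y, and Chl1 in the 6 native and 4 crosslinked libraries (x axis). Crosslinked WT replicate 2 carries the FLAG-like pattern, with Xist at 10.71, Uty at -2.12 and Chl1 at 1.01, and crosslinked WT replicate 1 the opposite.

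More widely, 794 of the 926 genes separated higher (85.7%) also had both crosslinked FLAG libraries above crosslinked WT replicate 1, and 616 (66.5%) above WT replicate 2. Over all genes these shares were 36.6% and 34.6%. Of the 972 separated lower, 833 (85.7%) had both below WT replicate 1 and 514 (52.9%) below WT replicate 2, against 40.2% and 37.6% of all genes. A test of the difference between the native and the crosslinked fold change found 0 genes (smallest adjusted p = 0.970, limma), and before adjustment, with p under 0.05, the native fold change was the greater in 37 genes and the smaller in 31.

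Among the genes higher in all 3 FLAG libraries, those with the smallest p-values were of mixed function, and none was called. Rab25, a small GTPase of epithelial recycling endosomes, had log2 values of 1.87, 1.70 and 0.55 in FLAG and -3.55, -2.96 and -2.33 in WT (log2 fold change 4.32 ± 0.64 SE, adjusted p = 0.0643, limma). Rab25 is the tagged gene's neighbour, lying on the other strand 633 nt past Mex3a. The next gene, Lamtor2, 8.42 kb away, had a log2 fold change of 1.11 with overlapping groups (0.47 without WT replicate 2), and 1.57 in the crosslinked libraries. Of the other 36 genes within 500 kb of Mex3a, 0 were separated higher and 1 lower, and the median log2 fold change of the 37 was 0.13. Ulbp1, a ligand of the NKG2D receptor, had 2.21, 3.37 and 2.99 in FLAG and -0.16, 0.51 and -0.60 in WT. Neat1, the architectural RNA of paraspeckles, had 8.98, 9.54 and 8.82 in FLAG and 7.13, 7.77 and 7.78 in WT, with no overlap. Flt1, a VEGF receptor, and Kcnd2, a voltage-gated potassium channel, had log2 fold changes of 2.32 and 1.34, with FLAG replicate 2 the highest library for each. Ifitm3, an interferon-induced membrane protein, had 2.10, and Ccdc80, a secreted matrix protein, 2.93.

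The 4 Mex3 genes had positive log2 fold changes, 2.11 for Mex3a, 1.91 for Mex3b, 1.29 for Mex3c and 1.91 for Mex3d, and 0 of 4 were called (adjusted p = 0.201 to 0.259, limma). Mex3a had log2 values of 5.95, 4.03 and 6.10 in FLAG and 3.33, 3.52 and 2.89 in WT. The FLAG libraries lay above WT for Mex3a, Mex3b and Mex3d, with FLAG replicate 2 the nearest to WT each time, and Mex3c overlapped. Without FLAG replicate 2 all 4 were called, at log2 fold changes of 1.82 to 2.78.

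Adaptors of mRNA decay, immediate early genes and p53 targets had positive medians, with 1 FLAG library close to WT replicate 2 in each. A class is described by the median log2 fold change of its measured genes, which was -0.04 over all genes, and by its separated genes, 5.82% higher and 6.11% lower over all genes. The Btg, Tob and Zfp36 genes encode adaptors that bring the CCR4-NOT deadenylase to messages, and 5 of 8 were separated higher and 1 lower (median 1.43). Tob1 had log2 values of 4.34, 2.82 and 5.12 in FLAG and 1.88, 2.55 and 0.97 in WT. Btg2, Zfp36l2 and Zfp36l1 had log2 fold changes of 1.65, 1.83 and 0.90, and Btg3, named after its value was seen as the exception, had -0.83. The class median of FLAG replicate 2 (0.72 from the WT mean) and that of WT replicate 2 (0.71) were almost level, and without FLAG replicate 2 the median was 1.63 with 5 genes called higher. The 11 CCR4-NOT subunits had a median of -0.03. Immediate early genes, which are switched on within minutes of a stimulus and mostly encode transcription factors, had a median of 0.87, with 4 of 20 separated higher and 0 lower. In this class FLAG replicate 2 (0.89 above the WT mean) was between replicates 1 (1.05) and 3 (0.76), and WT replicate 2 stood at 0.74. Without FLAG replicate 2 the median was 0.94 and 1 gene was called higher. Fosb had 2.03, 2.24 and 1.90 in FLAG and 0.39, 1.46 and 0.82 in WT.

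Targets of p53, which slow the cell cycle or promote apoptosis, had 8 of 16 genes separated higher and 0 lower, with a median of 0.70. Here too FLAG replicate 2 (0.38) barely passed WT replicate 2 (0.37), and without it the median was 0.91 with 9 genes called higher and 1 lower. Cdkn1a, the cyclin-dependent kinase inhibitor p21, had log2 values of 6.24, 5.27 and 5.74 in FLAG and 4.61, 5.03 and 4.03 in WT. Pmaip1, a BH3-only protein, had a log2 fold change of 2.74, Trp53inp1 of 1.82 and Ccng1 of 1.73. Genes of iron storage and oxidative stress had 7 of 14 separated higher and 0 lower (median 0.81), among them the ferritin chains Fth1 (1.29) and Ftl1 (0.97), metallothionein Mt1 (1.02) and the mitochondrial superoxide dismutase Sod2 (1.15). Without FLAG replicate 2 the median of this class was 1.07 and 8 genes were called higher. Fth1 had 6.04, 4.62 and 5.65 in FLAG and 4.37, 4.46 and 3.63 in WT, so that FLAG replicate 2 lay just above WT replicate 2. In the LIF and gp130 pathway, the ligand Lif (2.42), the oncostatin M receptor Osmr (0.93, and 0.50 without FLAG replicate 2) and the inhibitor Socs3 (3.32) made up the 3 of 11 genes separated higher, while the median of the 11 was 0.28 and, without FLAG replicate 2, 0.11.

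Markers of neural stem cells and astrocytes had 6 of 17 genes separated higher and 0 lower, with a median of 0.99. Without FLAG replicate 2 the median was 1.30 and 11 were called higher. Their summed linear level was 2181, 1025 and 1929 in FLAG and 971, 1325 and 1008 in WT, so that the groups overlapped in FLAG replicate 2. The list did not move as one, since Slc1a3, another glutamate transporter of these cells, lay below WT in all 3 FLAG libraries (8.36, 7.99 and 8.14 against 8.56, 8.82 and 8.73, log2 fold change -0.54). Markers of the oligodendrocyte lineage, of which 6 of 13 are in the matrix, also had a positive median (0.52, with 5 of 6 positive and 1 separated higher), and their summed level was 449, 159 and 380 in FLAG and 134, 177 and 110 in WT. Their part in the result was not tested. Slc1a2, the main glial glutamate transporter, had log2 values of 7.75, 7.23 and 7.89 in FLAG and 6.64, 6.78 and 6.59 in WT (log2 fold change 0.96 ± 0.20 SE). Apoe, the lipid carrier of astrocytes, had 0.99. Sox2, a factor of NSC identity, had 4.80, 4.01 and 5.25 in FLAG and 3.54, 3.71 and 3.39 in WT. Over the 13 Sox genes the median was 1.07, with Sox2 and Sox4 separated, Sox4 only barely (5.04 in FLAG replicate 2 and 5.03 in WT replicate 2), while Sox9 (2.34) and Sox11 (2.07) overlapped in FLAG replicate 2. Without that library the median was 1.48, and 7 Sox genes were called higher, and Sox5 (-0.73) and Sox13 (-0.95) lower. Of the proneural, Hes and Id factors, 2 of 15 were separated higher, Bhlhe40 (1.14) and Id2 (1.98), and Olig1 (1.52) overlapped.

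The clustered protocadherins, cell surface proteins through which neurons tell self from other, had 14 of 56 genes separated higher and 0 lower (median 0.51, and 0.78 with 19 called higher without FLAG replicate 2). With 1 library left out, the lowest median of the class was 0.33. All 14 separated genes belong to the beta cluster, in which 20 genes are measured (median 0.92). The alpha (14 genes, median 0.56) and gamma (22 genes, median 0.28) clusters had 0 separated genes. Beta genes have 1 exon at the median, whereas alpha and gamma transcripts share their last exons within a cluster, so their reads cannot be told apart there. Pcdhb16 had 3.68, 3.28 and 3.48 in FLAG and 2.36, 2.30 and 1.72 in WT, and Pcdhb5 and Pcdhb10 had log2 fold changes of 2.70 and 2.56.

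Ribosomal protein, respiratory chain and histone genes had positive medians, with few genes separated over all 6 libraries. Cytosolic ribosomal protein genes were positive in 75 of 83 (median 0.49), with only Rplp0 separated, and FLAG replicate 2 stood at -0.04 from the WT mean. Without that library their median was 0.79 with 29 of 83 called higher, and after a correction for the exonic share of a gene, with all 6 libraries, it was 0.26. Over all fits with 1 library left out, it ran from 0.29 to 0.79. Histone genes, whose main forms have messages without a poly-A tail, were positive in 57 of 59 with a median of 0.98, and H3f3b and Hist1h3i were separated higher. The WT libraries themselves ran from -0.81 to 0.41 for this class, and without FLAG replicate 2 the median was 1.37 with 20 genes called higher and 1 lower. The lowest histone median with 1 library left out was 0.58. Nuclear-encoded respiratory chain genes had a median of 0.43 (4 of 75 separated higher), and of 0.67 with 16 called higher without FLAG replicate 2. The mitochondrial ribosomal RNAs mt-Rnr1 and mt-Rnr2 were both separated, with log2 fold changes of 1.11 and 1.10. In cholesterol synthesis and uptake, 3 of 21 genes were separated higher (median 0.50, and 0.73 with 9 called higher without FLAG replicate 2), which were Stard4 (1.54), a carrier of sterol, and the synthesis enzymes Idi1 (0.80) and Sc5d. DNA replication (median -0.06, 0 of 32 separated) and mitosis (median -0.01, with Ccnb2, at -1.06, the 1 of 25 separated lower) were near the median of all genes.

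Several classes of receptors, channels and matrix genes had negative medians. Of 21 glutamate receptor genes, 8 were separated lower and 4 higher (median -0.26), which is a larger share in each direction than over all genes. The AMPA subunits had 3 of 4 lower (median -1.08), the NMDA subunits 3 of 5 lower and Grin1 (1.54) higher, and the kainate subunits 2 of 5 higher, Grik2 (1.51) and Grik3 (2.12). Grik2 had log2 values of 6.74, 6.86 and 7.01 in FLAG and 4.91, 6.07 and 5.10 in WT, with the FLAG libraries close together. In the crosslinked libraries, WT replicate 2 (7.73) was the highest for Grik2. Voltage-gated and potassium channels had 11 of 63 lower and 5 higher (median -0.32), with Kcnn3 at -1.14, Cacna1b at -1.12 and Cacna1c at -0.63. Matrix genes had 13 of 85 lower and 5 higher (median -0.24), with Col12a1 at -2.05, Adamts12 at -1.24 and the membrane protease Mmp14 at 1.48. G protein-coupled receptors had 5 of 76 lower and 7 higher (median -0.40), with P2ry1 (2.75), F2r (1.67) and Ednrb (1.15) higher and Adgrl2 (-0.92) lower. Of the ephrins and Eph receptors, 3 of 15 were lower, Ephb1 (-1.54), Epha5 (-0.74) and Efnb2 (-0.60). After a correction of every library for how much of a gene is exonic, the median of the glutamate receptors was 0.0328, that of the matrix genes -0.0543, that of the channels -0.21, that of the G protein-coupled receptors -0.33 and that of the ephrins and Eph receptors -0.29. Without FLAG replicate 2, and without that correction, the medians were -0.19, -0.32, -0.44, -0.42 and -0.26 in the same order. Over all fits with 1 library left out, the medians nearest to 0 were -0.14 for the glutamate receptors, -0.13 for the matrix genes and -0.24 for the channels.

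**Figure D3:**
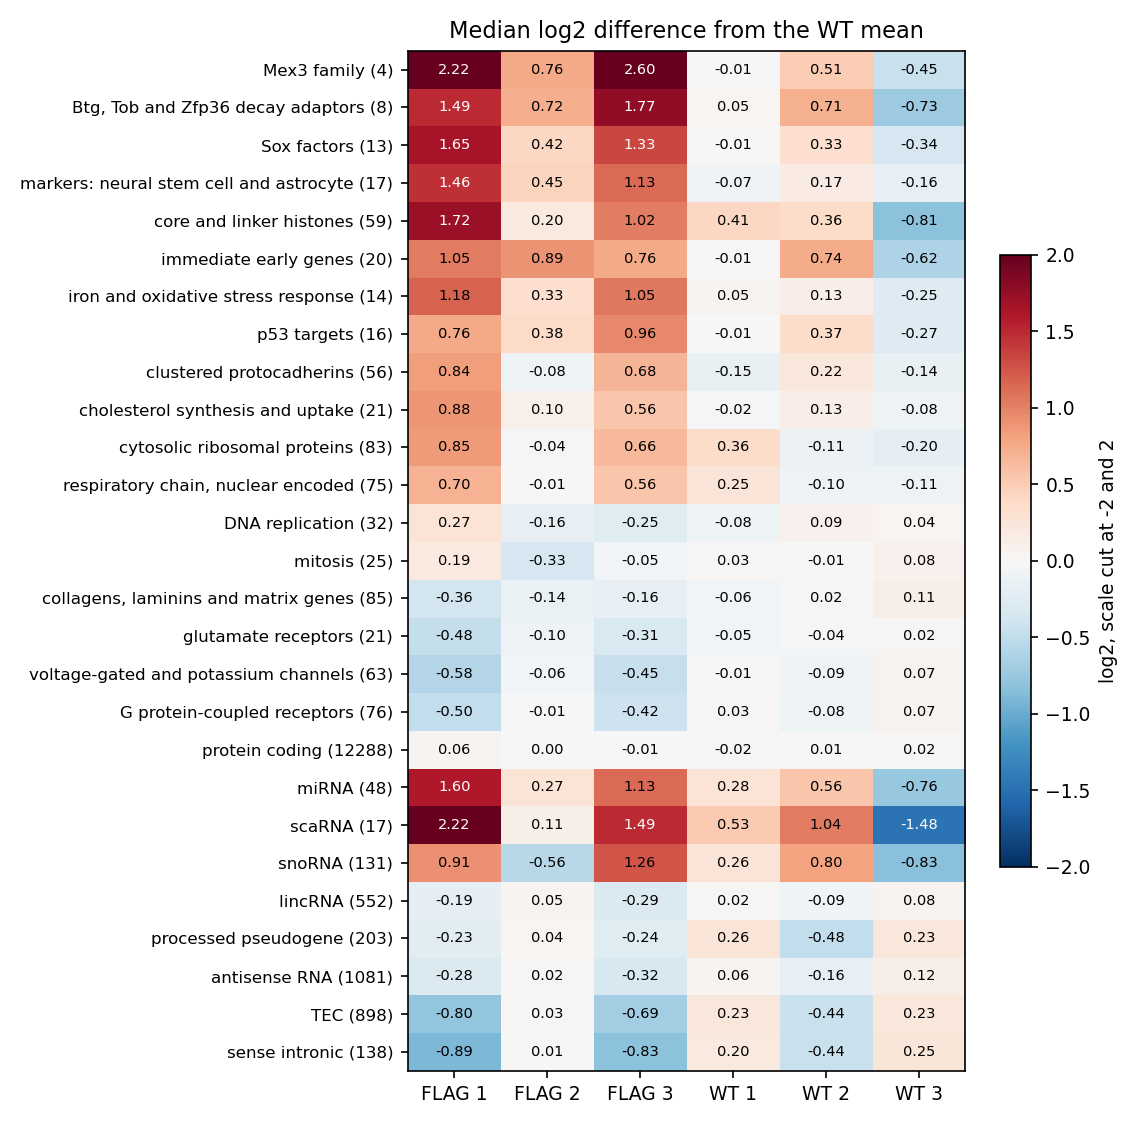
Median log2 difference from the WT mean in each native library (columns) for gene classes and biotypes (rows, number of measured genes in brackets), with red above and blue below the WT mean. FLAG replicates 1 and 3 share the pattern, FLAG replicate 2 is near 0 for most rows (-0.04 for ribosomal proteins, 0.03 for TEC genes), and WT replicates 2 and 3 often stand on opposite sides.

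Over 49 classes with at least 5 measured genes, the medians of the 3 FLAG libraries all lay above those of the 3 WT libraries in 12 and all below in 3. In some of the 12 the margin was slight, as given above for the Btg and p53 classes. The 12 include the oligodendrocyte lineage markers, the Sox, Btg and Tob, immediate early, p53 and iron classes and the NSC markers, and the 3 are the glutamate receptors, the matrix genes and the endothelial markers. The endothelial list rests on 5 measured genes, mostly at low levels, of which Tek (-1.03), Pecam1 (-0.65) and Esam (-1.41) were separated lower and Flt1 (2.32) higher. Their summed linear level went the other way, with 16.4, 27.2 and 15.4 in FLAG and 12.96, 12.99 and 12.35 in WT.

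**Figure D4:**
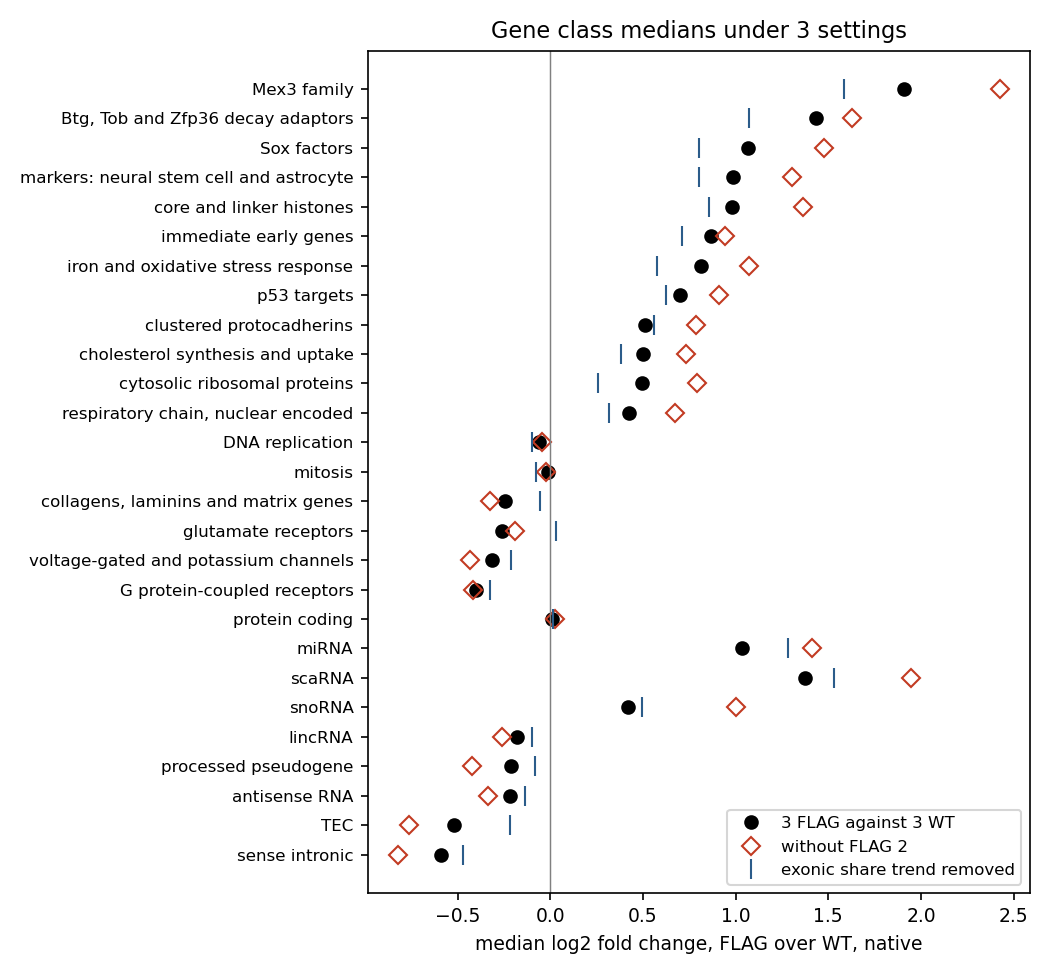
Median log2 fold change of native FLAG over WT (x axis) for the same classes (y axis) with all 6 libraries (black circles), without FLAG replicate 2 (red diamonds) and after removing the trend on exonic share (blue bars). Leaving out FLAG replicate 2 moves most medians away from 0, as for the Mex3 genes (1.91 to 2.42) and TEC genes (-0.52 to -0.76).

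Among the biotypes, protein-coding genes had a median of 0.01, with 760 of 12288 separated higher (6.18%) and 666 lower (5.42%). The 3611 other genes were more often lower than higher, with 166 separated higher (4.60%) and 306 lower (8.47%). Unspliced transcripts of class TEC, which lie mostly inside other genes, had a median of -0.52, with 15 of 898 separated higher and 80 lower (8.91%). After the correction for exonic share this median was -0.22, and without FLAG replicate 2 it was -0.76. Sense intronic transcripts had -0.59 (2 higher and 13 lower of 138), antisense RNAs -0.22 (63 and 100 of 1081) and lincRNAs -0.18 (32 and 54 of 552). Leaving out FLAG replicate 2 gave medians of -0.82, -0.34 and -0.26, and 183 antisense RNAs were called lower and 70 higher. Airn, an imprinted nuclear RNA, had -0.81, against 1.55 for Neat1. These genes mostly overlap coding genes, 91.2% of the TEC, 97.1% of the sense intronic and 96.6% of the antisense genes. Across the overlapping pairs, which are no replicates and may share reads, the log2 fold change of the noncoding gene and that of its coding partner had a Pearson r of 0.615 for TEC, 0.584 for sense intronic and 0.692 for antisense genes. Xist and Tsix, which lie on opposite strands, differed by at most 0.0584 in any native library, so their reads cannot be told apart by strand, and 20 of 3537 overlapping pairs on opposite strands were equal within 0.1 in all 6 libraries.

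Small nucleolar RNAs varied as much within WT as between the groups. Small nucleolar RNAs (snoRNAs) guide chemical changes of ribosomal and other RNAs, box C/D members for methylation and box H/ACA members for pseudouridine, and small Cajal body RNAs (scaRNAs) do the same for spliceosomal RNAs. The sequences of the lowest separated members and of the H/ACA member with the smallest p-value among those higher are shown, read from GRCm38, with the C and D boxes (TGATGA and CTGA) or the terminal ACA box in capitals.
Snord32a (chr7:45127382-45127464, minus strand, 83 nt): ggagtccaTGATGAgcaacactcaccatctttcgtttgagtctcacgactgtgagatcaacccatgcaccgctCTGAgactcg
Gm22357 (chr1:161036057-161036139, plus strand, 83 nt): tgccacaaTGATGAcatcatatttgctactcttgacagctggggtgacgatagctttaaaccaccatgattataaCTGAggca
Snord104 (chr11:106500993-106501062, plus strand, 70 nt): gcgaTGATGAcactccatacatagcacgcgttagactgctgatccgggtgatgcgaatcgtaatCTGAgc
Gm22579 (chr9:15316676-15316808, plus strand, 133 nt): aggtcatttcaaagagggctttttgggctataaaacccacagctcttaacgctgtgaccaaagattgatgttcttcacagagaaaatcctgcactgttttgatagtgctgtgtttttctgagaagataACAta
Snora31 (chr14:75847905-75848034, plus strand, 130 nt): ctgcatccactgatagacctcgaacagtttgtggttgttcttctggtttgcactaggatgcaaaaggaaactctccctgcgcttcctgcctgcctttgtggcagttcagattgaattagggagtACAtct

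Of the 148 snoRNA and scaRNA genes, 29 had both C and D boxes near their ends, 90 an ACA box near the 3' end, and 29 neither, a sorting made after the values had been seen. The C/D genes (median length 94 nt) had a median log2 fold change of -0.44, and the H/ACA genes (134 nt) of 1.12, so that class and length went together. Without FLAG replicate 2 these medians were -0.00869 and 1.84. The C/D genes stood at 0.21, -0.68 and -0.42 from the WT mean in FLAG and at 0.44, -0.16 and -0.34 in WT. In the crosslinked libraries the medians of the log2 fold change were -0.69 for the C/D and -0.85 for the H/ACA genes, and this difference from the native libraries was not tested. Snord32a, one of 3 C/D genes separated lower, had log2 values of 0.40, 0.08 and 0.74 in FLAG and 1.79, 1.40 and 1.48 in WT. Snora31 had 3.52, 2.91 and 4.49 in FLAG and 1.54, 3.12 and 1.60 in WT, so WT replicate 2 exceeded FLAG replicate 2. In the H/ACA genes the library medians stood at 1.48, -0.34 and 1.92 from the WT mean in FLAG and at 0.22, 1.03 and -1.21 in WT, and 0 of 90 were separated higher. Gm22579 and the 1 separated gene with neither box are the other snoRNA genes lower in all 3 FLAG libraries.

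The 32 genes of the class misc_RNA, short RNAs of mixed kinds, had a median of 0.82 (1.02 without FLAG replicate 2), with 6 separated higher (18.8%) and 3 lower (9.38%). Their library medians were 0.88, 0.37 and 0.79 from the WT mean in FLAG and 0.20, -0.06 and -0.18 in WT, so that this was the 1 of 17 biotypes of at least 10 genes with all FLAG medians above WT. Several members lie within genes already described. Gm27733 (4.91) and Gm27927 (5.37), both separated higher, and Gm27520 (3.57) lie within Xist and Tsix, and Gm27505 (1.57) and Gm27533 (1.76), also separated, and Gm28006 (0.97, and 0.44 without FLAG replicate 2) lie within Neat1. Rn7s2, a copy of the signal recognition particle RNA and so open to shared reads, had log2 values of 4.25, 3.09 and 4.25 in FLAG and 3.02, 3.05 and 0.14 in WT.

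Annotated microRNA loci had a median log2 fold change of 1.04, with 4 of 48 separated higher and 0 lower. Their library medians were 1.60, 0.27 and 1.13 from the WT mean in FLAG and 0.28, 0.56 and -0.76 in WT, so that FLAG replicate 2 lay below WT replicates 1 and 2. The median was 1.41 with 13 loci called higher and 1 lower without FLAG replicate 2, and 0.58 without WT replicate 3. The kit does not select mature microRNAs, and 39 of the 48 loci lie inside coding genes, with a Pearson r of 0.676 across these pairs. RefSeq gave a mature sequence for 17 of the 48 and for 1 of the 4 separated loci, shown with its seed (bases 2 to 8) in capitals from build GRCm38.p6.
mmu-miR-8094 (chr17:35251314-35251334, plus strand): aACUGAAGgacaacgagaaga
Its locus, Mir8094, had log2 values of 1.70, 0.72 and 1.13 in FLAG and 0.18, 0.71 and -0.71 in WT, so that the nearest libraries of the groups were almost level.

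Coding genes were divided into 10 equal bins by the span from gene start to end. In the bin of the shortest genes, up to 5.79 kb, the median log2 fold change was 0.52, with 164 of 1228 genes separated higher and 17 lower. In the bin of the longest, 156 kb and over, it was -0.33, with 46 separated higher and 191 lower. The shortest genes stood at 0.90, 0.06 and 0.68 from the WT mean in FLAG replicates 1, 2 and 3 and at 0.06, 0.21 and -0.24 in the WT replicates. Across coding genes, which are no replicates, the Spearman correlation of span with the difference from the WT mean was -0.508, -0.0579 and -0.402 in FLAG and 0.135, -0.420 and 0.392 in WT. WT replicate 2 thus had a slope like that of FLAG replicates 1 and 3, and FLAG replicate 2 almost none. The share of a gene's span that is exonic gave the mirror image (rho 0.438 with the log2 fold change over 12276 genes). GC content (rho 0.0838), 3' UTR length (-0.0253) and the density in the 3' UTR of the MEX-3 recognition element (0.00658) or of the letters ATTTA (0.00578) did not order the log2 fold changes to that degree. The recognition element, a pair of short sub-sites with a variable gap, was searched on the transcript strand in the 11431 coding genes with a 3' UTR of 200 nt or more, of which 83.1% hold it and 76.1% hold ATTTA. By recognition elements per kb, the bin with the most had a median log2 fold change of 0.00578, with 92 of 1143 genes separated higher and 39 lower. The next bin had 74 of 1143 higher and 62 lower, and a bin with none had a median of 0.0385 with 61 of 1144 higher and 50 lower.

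**Figure D5:**
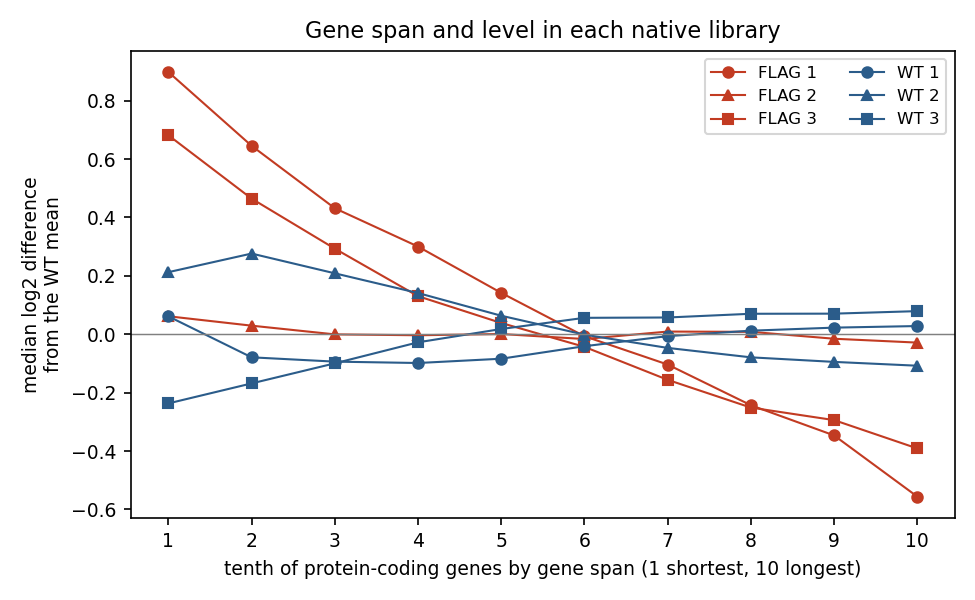
Median log2 difference from the WT mean (y axis) in 10 equal bins of the protein-coding genes by gene span, from shortest to longest (x axis), for each native library. FLAG replicates 1 and 3 fall from 0.90 and 0.68 in the shortest bin to -0.56 and -0.39 in the longest, FLAG replicate 2 stays near 0, and WT replicate 2 runs the same way as FLAG replicates 1 and 3.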

How the data were processed

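RIP-seq was measured in 6 native libraries, 3 FLAG and 3 WT. Per the labels and the methods, the authors trimmed reads with cutadapt and Trimmomatic, mapped them to GRCm38 with HISAT2 and counted them per gene with featureCounts, and normalized the matrix with DESeq2, and the notes also name limma. The deposited values are on a log2 scale with nearly equal distributions, so the depth of each library is unknown and counting error cannot be given. FLAG was compared with WT on these values with limma 3.58.1 (R 4.3.3, lmFit and eBayes with a trend, no block, no pseudocount, no filter), for which the steps were tested on simulated data. The thresholds were 0.05 for the Benjamini-Hochberg adjusted p and 0.58 for the log2 fold change. Named genes are all called genes, the 10 most significant separated genes in each direction other than unnamed loci, the Mex3 genes and up to 4 members with the smallest p-value per class, and other genes (further X- and Y-linked genes, members that complete a small count, overlapping partners and genes whose sequence is shown) were chosen after their values were seen. The 54 gene lists, the members and these rules were chosen with earlier results of these data known. Features came from GENCODE M21 on GRCm38 (15864 of 15899 genes found). The 21 symbols turned into dates by a spreadsheet were restored. Alternatives were pseudocounts of 1 and 8, a minimum mean of 10, other scalings, trends removed in 20 bins, weights, blocks, other moderation and each library left out. Python 3.11.15, numpy 2.4.6, pandas 2.3.3, scipy 1.17.1 and matplotlib 3.10.9 were used.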

Additional observations from a re-analysis of the deposited data

Results flagged for a closer look

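The median of the 48 microRNA loci lay above the WT mean in the 3 native FLAG libraries (1.60, 0.27 and 1.13), though WT replicates 1 and 2 (0.28 and 0.56) did too and passed FLAG replicate 2, and below it in both crosslinked FLAG libraries (-0.03 and -0.15), with medians of log2 fold changes of 1.04 and -0.14. This difference between the protocols was not tested. The snoRNA and scaRNA genes also had medians of opposite sign in the native (0.42 and 1.37) and crosslinked (-0.85 and -0.36) libraries, without every library taking part, and this was not tested either. With 1 library left out, the native snoRNA median ran from 0.15 without WT replicate 3 to 1.00 without FLAG replicate 2.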

How the results depend on the processing

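The genes called higher numbered 0 and the genes called lower 17. They were 1656 and 1921 with array weights, 1870 and 2073 without both replicates numbered 2 (added after the data were seen), 1 and 3 in a fit of all 4 groups, 2 and 25 with robust moderation, 0 and 0 without a trend, 0 and 10 after removing GC content and length, 0 and 7 with a minimum mean of 10, 1 and 22 after removing the exonic share trend (added after the data were seen) and 1 and 19 without genes at a library minimum. Leaving out 1 library gave 0 to 1450 higher and 0 to 1710 lower, and the top values came without FLAG replicate 2. Without WT replicate 1 or 3, 0 genes were called in either direction, without FLAG replicate 1 or 3, 4 and 1 were lower, and without WT replicate 2, 22 and 33 were higher and lower. The genes separated higher (926) and the genes separated lower (972) were 3696 and 3844 without both replicates numbered 2, 301 and 403 with the minimum mean, 241 and 285 with a pseudocount of 8, and 949 to 2962 and 979 to 3023 with 1 library left out. Separation by chance is easier with fewer libraries, so the higher counts where libraries were left out are no added support.

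Without both replicates numbered 2, the medians were 1.37 for immediate early genes, 2.03 for Btg and Tob genes, 1.02 for p53 targets, -0.38 for matrix genes, -0.98 for TEC, -0.41 for antisense and 1.53 for snoRNA genes. With the exonic share trend removed they were 0.71 for immediate early genes and -0.0543 for matrix genes, and the glutamate receptors reversed to 0.0328. With a pseudocount of 8 they were 0.85 for Mex3, 0.21 for immediate early, 0.57 for Btg and Tob, -0.0544 for matrix and 0.23 for microRNA genes, with a pseudocount of 1 0.65 for immediate early genes, and with the minimum mean -0.0155 for matrix and -0.41 for antisense genes. With 1 library left out, immediate early genes ran from 0.61 to 1.29. The cause of these shifts was not tested. In the other 430 combinations of these counts and medians with a setting, a count stayed within 1.5 times and a median moved by less than the SD of the 3 FLAG library medians, a wide limit under which a pseudocount of 8 still took TEC to -0.0958, sense intronic genes to -0.0976 and histones to 0.305. Of the 129 named genes run, only Mid1-ps1 (-0.19) changed sign, with a range of -0.349 to 0.0392 when 1 library was left out (0.0392 without WT replicate 2) and 0.0643 without both replicates numbered 2. Log2 fold changes of several genes at low levels shrank with a pseudocount of 8, as for Rab25 (4.32 to 0.40), Socs3 (3.32 to 0.35), Pcdhb5 (2.70 to 0.43), Id2 (1.98 to 0.36) and Gm27733 (4.91 to 0.47), against -3.60 to -3.13 for Chl1. The lowest value over all alternatives was also small for Lif (0.38 against 2.42), Pmaip1 (0.39 against 2.74) and P2ry1 (0.51 against 2.75). The same held for Grin1 (0.16 against 1.54) and Hist1h3i (0.25 against 1.22).

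Same-numbered libraries deviated from their group means with correlations of -0.149, -0.430 and -0.167, which show no likeness by replicate number. Whether any of them shared a preparation was not tested. With a replicate block 1 gene was called higher and 13 lower, and 5 of the 17 genes were not called. Depth is unknown, low genes were most often at a library's lowest value in FLAG replicates 1 and 3, and each group had only 3 libraries.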
